A study of Mus musculus with 36 samples.

Results

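The 5 subunits of the transcription factor NF-kB and 5 genes grouped as its inhibitors were followed across bone-marrow-derived macrophages (BMDMs) of mice. They were chosen by name, as the 10 rows of the gene count table with the names Nfkb1, Nfkb2, Rel, Rela, Relb, Nfkbia, Nfkbib, Nfkbie, Nfkbiz and Tnfaip3, out of 54532 genes in all. Each of the 10 passed the filter on low counts in every comparison.

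NF-kB is a family of dimers built from p50 (made from p105, the product of Nfkb1), p52 (made from p100, the product of Nfkb2), RelA, RelB and c-Rel. In resting cells the inhibitors of the IkB family hold the dimers in the cytoplasm, and a signal from a Toll-like receptor activates the IKK kinases, which mark the inhibitors for breakdown and free the dimers to enter the nucleus. The genes they switch on include those of some of their own inhibitors, among them IkB alpha (Nfkbia) and A20 (Tnfaip3), and this feedback helps to end the response in macrophages.

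The study asked how a compound called Core Circadian Modulator (CCM), a ligand of the circadian clock protein BMAL1, alters macrophages at rest and during an inflammatory stimulus. BMDMs of adult female C57BL/6 mice were grown with MCSF and treated for 6 h with DMSO (vehicle), 100 µM CCM, 100 nM LPS (the endotoxin of Gram-negative bacteria, sensed by a Toll-like receptor) or LPS with CCM. KO cells came from LysM-Cre;Bmal1 flox/flox mice and WT cells from Bmal1 flox/flox littermates without Cre, so that all groups carry the floxed alleles and were exposed to DMSO, and the WT controls carry no Cre. The LysM promoter drives Cre in myeloid cells, and no group carries Cre without the floxed alleles. Each treatment has 3 WT and 6 KO libraries, 36 in all. The study calls its macrophage replicates biological, and neither it nor the labels say which libraries share a mouse, so the p-values measure the spread between these libraries.

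The libraries held 13469262 to 28288923 read pairs on genes, with a median of 19951421. The summed level of 7 macrophage markers was 11236 to 19952 read counts scaled to library size (CPM) in every library, and none of the markers was at 0 throughout. Summed levels of 8 neutrophil and 5 fibroblast markers were 383 to 1164 CPM and 295 to 1659 CPM. Bmal1 (Arntl) itself was at 7.27 to 12.9 CPM in WT and 2.13 to 10.7 CPM in KO libraries. These ranges overlap, and whole-gene counts include exons outside the floxed part, so they do not check the deletion. The 4 libraries numbered KO replicate 6 stood apart from the other KO libraries in a way that followed gene length, as described below. KO results include them unless stated. Calls of the members are also given without them, while the KO subunit shares, transcript ratios and counts of the other lists are not. From RNA of whole cultures, fewer cells of a type and less RNA per cell cannot be told apart.

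On the mouse build GRCm38 the subunit genes lie as follows, Nfkb1 at chr3:135584655-135691547, Nfkb2 at chr19:46304737-46312090, Rel at chr11:23736847-23770970, Rela at chr19:5637483-5648130 and Relb at chr7:19606217-19629438. Of the inhibitors, Nfkbia lies at chr12:55489410-55492647, Nfkbib at chr7:28758251-28767512, Nfkbie at chr17:45555703-45563169, Nfkbiz at chr16:55811375-55838899 and Tnfaip3 at chr10:19000910-19015657. Nfkb2 shares exonic bases with Psd and AC114539.1 on the opposite strand, and Nfkbib with Ccer2 and Sirt2. Whether the counting used strand is not stated in the sources used here, so the values of Nfkb2 and Nfkbib are uncertain to the extent that these neighbours contributed reads.

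NF-kB dimers bind DNA at kappaB sites, and several NF-kB genes are themselves regulated through such sites. The 250 bases before the annotated RefSeq starts (GRCm38.p6) were available for 7 of the 10 genes, as 10 promoters. A kappaB consensus of 10 bases was searched on both strands, with overlapping matches kept, and was found in 7 of these 10 promoters, belonging to 5 of the 7 genes (Nfkb2, Rel, Nfkbia, Nfkbie and Tnfaip3). Nfkb2 alone accounts for 3 of the 7 promoters. For comparison, 3.90% of all 32851 promoters of this length held a match, and 4.46% of the 27025 genes they belong to. The E-box CACGTG, the element bound by BMAL1 with its partner CLOCK, was present in 1 of the 10 promoters, at bases −33 to −28 of Tnfaip3, and in 6.02% of all promoters. The promoters of the 4 genes with a match that the results below turn on most, and that of Rela, which holds none, are shown 5′ to 3′ on the strand of the gene, with the bases of kappaB matches in capitals. A match describes the letters only.
Nfkb2, chr19:46304487-46304736 (plus strand): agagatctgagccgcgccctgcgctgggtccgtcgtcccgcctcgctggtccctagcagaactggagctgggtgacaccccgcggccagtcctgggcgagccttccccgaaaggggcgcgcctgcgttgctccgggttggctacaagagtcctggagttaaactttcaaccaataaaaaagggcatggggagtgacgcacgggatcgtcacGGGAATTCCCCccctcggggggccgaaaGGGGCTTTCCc
Rel, chr11:23770970-23771219 (minus strand): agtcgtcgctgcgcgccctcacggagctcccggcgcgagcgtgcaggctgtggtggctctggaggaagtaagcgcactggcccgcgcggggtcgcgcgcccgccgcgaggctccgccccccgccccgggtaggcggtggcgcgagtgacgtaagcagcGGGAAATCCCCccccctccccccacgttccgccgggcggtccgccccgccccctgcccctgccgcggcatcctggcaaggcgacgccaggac
Rela, chr19:5637291-5637540 (plus strand): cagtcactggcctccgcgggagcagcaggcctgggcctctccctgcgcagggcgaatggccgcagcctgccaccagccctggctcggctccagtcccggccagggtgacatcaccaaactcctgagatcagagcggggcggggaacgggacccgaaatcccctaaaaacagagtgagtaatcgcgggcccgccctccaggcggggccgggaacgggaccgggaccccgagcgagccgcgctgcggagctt
Nfkbia, chr12:55492648-55492897 (minus strand): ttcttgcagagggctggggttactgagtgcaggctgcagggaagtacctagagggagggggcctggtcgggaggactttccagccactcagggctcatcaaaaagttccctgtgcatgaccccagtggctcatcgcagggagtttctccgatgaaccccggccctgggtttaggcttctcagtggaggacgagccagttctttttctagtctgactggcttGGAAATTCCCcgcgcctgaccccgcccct
Tnfaip3, chr10:19015411-19015660 (minus strand): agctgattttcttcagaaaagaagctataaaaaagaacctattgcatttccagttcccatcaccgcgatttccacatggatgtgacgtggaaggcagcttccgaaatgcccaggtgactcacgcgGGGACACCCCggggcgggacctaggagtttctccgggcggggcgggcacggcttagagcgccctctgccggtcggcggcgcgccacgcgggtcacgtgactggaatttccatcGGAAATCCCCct
In the Nfkb2 promoter the first run in capitals holds 2 overlapping matches, on opposite strands, and the second lies at bases −11 to −2. In Nfkbia the match lies at bases −29 to −20, and in Tnfaip3 the matches lie at −125 to −116 and −12 to −3. In Rel the run in capitals again holds 2 overlapping matches on opposite strands. All positions count from the RefSeq starts. The Tnfaip3 window shown lies almost wholly, and that of Rela in part, inside the gene span given above. Another Tnfaip3 promoter, not shown, held neither a kappaB nor an E-box match.

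The first comparison was LPS against vehicle in WT cells, which asks how the family responds to the stimulus. All 10 genes rose, by 2.55-fold (Rela) to 16.9-fold (Nfkb2). The 5 genes grouped as inhibitors rose by 6.01-fold to 15.8-fold, and 4 of them (all but Nfkbib) had larger estimated changes than every subunit other than Nfkb2. The highest was Nfkbiz, whose product also acts as a nuclear cofactor, and the next was Tnfaip3 at 13.8-fold. The calls are those of edgeR's quasi-likelihood test at a Benjamini-Hochberg adjusted p of 0.05 over all 14501 genes tested, of which 30.6% were called higher. No member's LPS libraries overlapped with its vehicle libraries, in either genotype.

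Among the subunits, Nfkb2 was at 47.5, 50.5 and 47.3 CPM in the 3 WT vehicle libraries and at 835, 827 and 781 CPM in the 3 WT LPS libraries. The lowest LPS library was thus far above the highest vehicle library. The log2 fold change was 4.08 (SE 0.06, edgeR adjusted p = 2.70e-11). Nfkb1, whose product p105 gives p50 and also acts as an inhibitor, rose from 113, 116 and 112 CPM to 711, 722 and 697 CPM (log2 fold change 2.65, SE 0.05, edgeR adjusted p = 8.70e-11). Both groups of this gene were tight and well apart.

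Relb, the usual partner of p52, was at 26.1, 21.4 and 23.1 CPM with vehicle and 158, 152 and 169 CPM with LPS, a log2 fold change of 2.77 (SE 0.08, edgeR adjusted p = 1.37e-09). Rel, which encodes c-Rel, a subunit of lymphocytes and activated macrophages, was at 36.2, 40.8 and 40.0 CPM and rose to 149, 132 and 131 CPM, a log2 fold change of 1.82 (SE 0.08, edgeR adjusted p = 1.48e-08). Rela, the main activating subunit of the classical pathway, started from 113, 99.9 and 105.4 CPM and reached 267, 262 and 278 CPM, a log2 fold change of 1.35 (SE 0.06, edgeR adjusted p = 2.97e-08). It had the smallest rise of the 10 genes, and its groups still lay apart by more than the spread within either.

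Among the inhibitors, Nfkbia, which encodes IkB alpha, an inhibitor that is quickly resynthesised after its breakdown, went from 62.0, 62.2 and 62.3 CPM to 659.9, 724 and 771 CPM (log2 fold change 3.54, SE 0.07, edgeR adjusted p = 9.12e-11). Its vehicle libraries were nearly identical and its LPS libraries spread more. Nfkbib, which encodes IkB beta, rose from 30.9, 25.7 and 25.3 CPM to 166, 155 and 169 CPM, with a log2 fold change of 2.59 (SE 0.08, edgeR adjusted p = 2.26e-09). Nfkbie, which encodes IkB epsilon, rose from 16.5, 15.4 and 15.2 CPM to 203, 201 and 206 CPM, with a log2 fold change of 3.70 (SE 0.06, edgeR adjusted p = 3.41e-11).

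Nfkbiz encodes IkB zeta, a nuclear member of the IkB family that acts as a cofactor on secondary response genes. It had 14.3, 17.4 and 21.4 CPM with vehicle and 276, 277 and 285 CPM with LPS, a log2 fold change of 3.98 (SE 0.13, edgeR adjusted p = 2.16e-09). Tnfaip3 encodes the ubiquitin-editing enzyme A20, which shuts off signalling above the IKK kinases. It went from 61.3, 61.5 and 73.6 CPM to 867, 889 and 957 CPM, a log2 fold change of 3.79 (SE 0.09, edgeR adjusted p = 3.05e-10). Both genes had vehicle libraries that varied more than those of Nfkbia, and LPS libraries far above them.

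**Figure D1:**
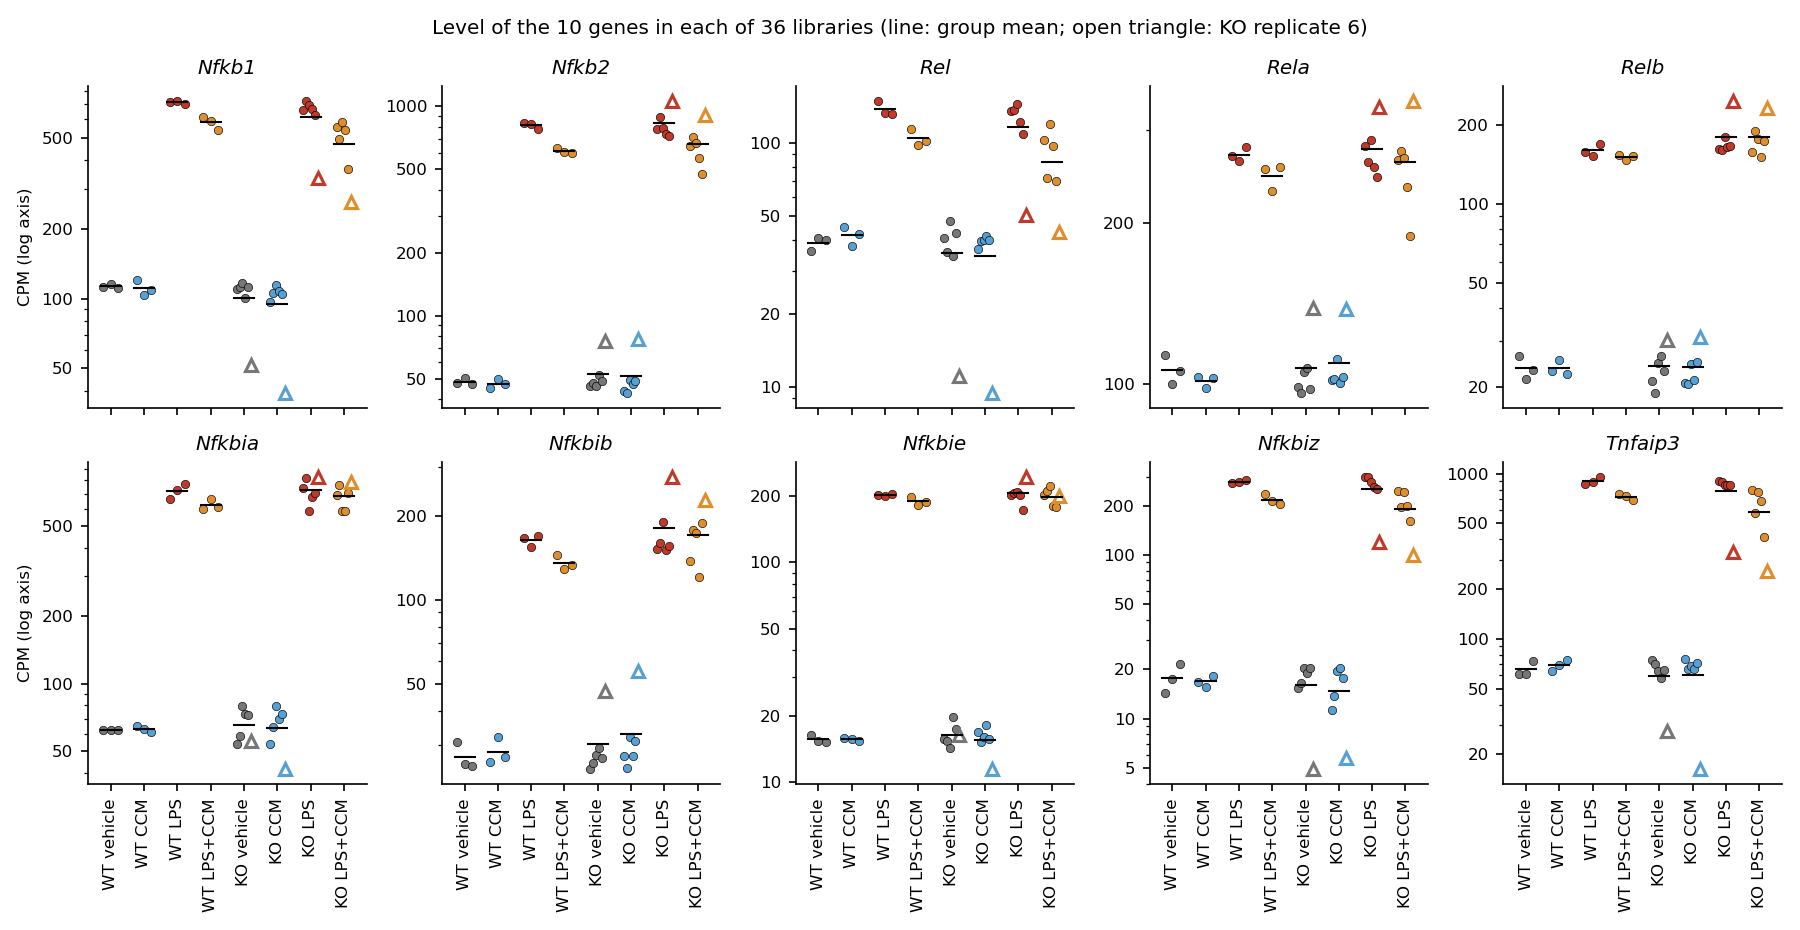
Level of each of the 10 genes in every library, in CPM on a log axis, by genotype and treatment; each point is 1 library, and KO replicate 6 is marked. The LPS libraries lie above the vehicle libraries in both genotypes, and KO replicate 6 lies at 51.4 CPM for Nfkb1 with vehicle while the other 5 KO libraries lie between 101 and 117 CPM.

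KO cells responded in the same direction. All 10 genes rose with LPS, against 22.4% of the 13648 genes tested, with log2 fold changes of 3.97 for Nfkb2, 2.90 for Relb, 2.60 for Nfkb1, 1.69 for Rel and 1.36 for Rela. For the inhibitors these were 3.95 for Nfkbiz, 3.68 for Tnfaip3, 3.64 for Nfkbie, 3.46 for Nfkbia and 2.57 for Nfkbib. The edgeR adjusted p was highest for Rel, at 0.000512. Without KO replicate 6 the values were close to these, at 4.01 for Nfkb2, 1.66 for Rel and 3.69 for Tnfaip3, and all 10 were called. Over all genes that fit called more, with 4509 higher and 5103 lower of 13844, against 3060 and 3373 with the replicate.

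Per library, Nfkb2 in KO cells was at 46.2 CPM (lowest), 48.1 (median) and 75.4 (highest) with vehicle and at 724, 786 and 1065 CPM with LPS. Nfkbia was at 53.8, 65.3 and 79.2 CPM with vehicle and 583, 722 and 832 CPM with LPS. Tnfaip3 was at 27.6, 64.4 and 74.0 CPM with vehicle and 336, 852 and 902 CPM with LPS. The highest Nfkb2 library and the lowest Tnfaip3 library under each treatment were both of KO replicate 6, and the groups did not overlap for any of the 3 genes. Rel came nearest to an overlap, with 11.1, 38.2 and 47.9 CPM with vehicle and 50.8, 128 and 145 CPM with LPS.

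The scaling of the libraries bears on the size of these rises. With scaling by total counts in place of TMM the median log2 change over all genes under LPS was −0.47 in WT and −0.44 in KO cells, against −0.05 in both with TMM, and the split of all calls in WT moved from 4441 higher and 4698 lower to 2551 higher and 8060 lower. In KO cells it moved from 3060 and 3373 to 1825 and 5708. The members were all called higher under both scalings, with a median log2 change of 3.15 (TMM) and 2.74 (total counts) in WT. Same-numbered KO libraries deviated together (correlations of 0.300 to 0.830), and differently numbered ones did so less (median 0.175). A fit with the replicate block called 4656 genes higher and 5118 lower, with all 10 members among those called higher.

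**Figure D2:**
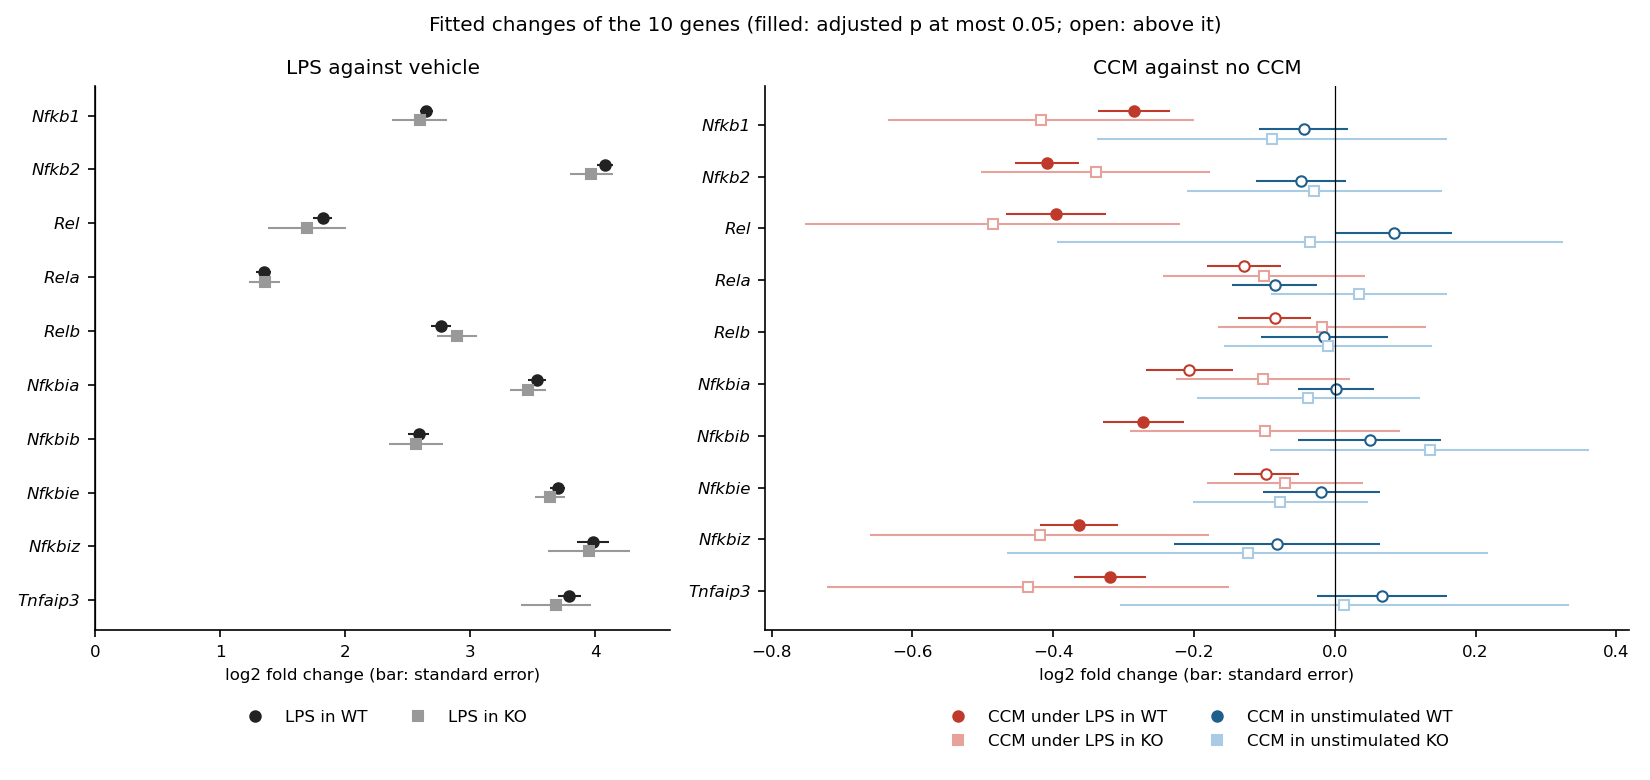
Log2 fold change of each gene with its standard error as a bar, for LPS against vehicle (left) and for CCM against no CCM with and without LPS (right), in WT and KO cells; filled symbols passed an adjusted p of 0.05 and open symbols did not. The LPS changes lie between 1.35 and 4.08 in WT, the CCM changes under LPS lie below 0, at −0.41 for Nfkb2 in WT, and the KO bars are longer.

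The unequal rises changed the make-up of the subunit transcripts. On the FPKM scale (CPM per kilobase of deposited gene length), Rela made up 52.4 ± 1.74% (SD, n = 3) of the summed level of the 5 subunits in WT vehicle cells and 21.3 ± 0.857% with LPS. Nfkb2 went the other way, from 19.8 ± 1.20% to 53.2 ± 1.27%. Nfkb1 was at 12.7% in both groups, while Rel went from 7.03 to 3.96% and Relb from 8.13 to 8.85%. In KO cells Rela went from 52.5 ± 2.91% to 21.7 ± 1.05% (n = 6) and Nfkb2 from 21.3 ± 2.58% to 53.8 ± 3.15%. No WT or KO library with LPS alone had an Nfkb2 share below 51.3%, and none with vehicle had a share above 26.2% (KO replicate 6). The shares depend on the deposited lengths, which are 12061 bases for Nfkb1 and 2716 for Rela. In CPM, without length, Nfkb1 was above Rela, at 114 against 106 in WT vehicle cells and 710 against 269 in WT LPS cells.

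**Figure D3:**
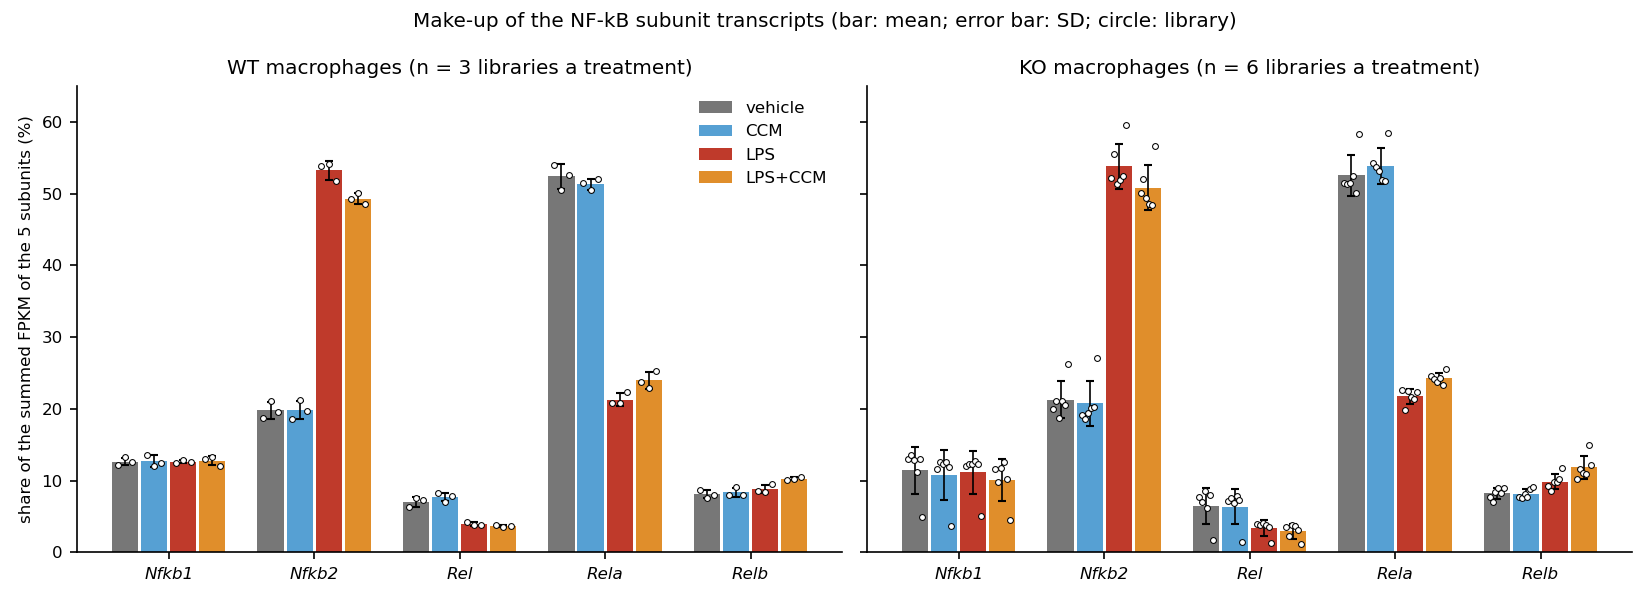
Share of each of the 5 subunits in their summed FPKM, in percent, by group; bars are means, error bars SD and points libraries. Rela has the largest share without LPS (52.4% in WT vehicle) and Nfkb2 with LPS (53.2% in WT LPS).

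In FPKM, which again depends on the deposited lengths, the WT vehicle level was highest for Rela (39.1) and Nfkbia (38.6), and lowest for Nfkbiz (3.53), Nfkbie (5.17) and Rel (5.23). With LPS the order was led by Nfkbia (446), Nfkb2 (248) and Tnfaip3 (125), followed by Rela (99.1), and Rel was lowest at 18.4. The level of Nfkbia relative to Rela, its principal target, was 0.991 ± 0.0625 in WT vehicle and 4.50 ± 0.291 in WT LPS cells (SD, n = 3). In KO cells it was 1.05 ± 0.227 and 4.47 ± 0.631 (n = 6). The summed level of the 3 cytoplasmic inhibitors Nfkbia, Nfkbib and Nfkbie relative to the summed 5 subunits was 0.757 in WT vehicle and 1.27 in WT LPS cells, and 0.805 and 1.29 in KO cells. These are ratios of transcripts and carry no measure of protein.

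The other genes of the pathway were read against all genes tested, of which 30.6% were called higher and 32.4% lower with LPS in WT cells. There 11 of 13 ubiquitin ligases and adaptors rose, among them Traf1 (log2 fold change 6.68), Birc3 (3.30) and the ligase Peli1 (2.90). Of 14 further brakes and partners of A20, 10 rose, led by Irak3 (3.83), an inactive kinase that blocks Toll-like receptor signalling, Tnip1 (3.19), which binds A20, and the RNase Zc3h12a (3.08), while the deubiquitinases Otud7b (−0.85) and Otulin (−0.44) fell. Of 14 IKK subunits and upstream kinases 8 rose and 4 fell, with Ikbke (2.83), Map3k8 (1.40) and Tbk1 (1.26) on the higher side and Tab1 (−0.50), Irak1 (−0.46) and Map3k14 (−0.28), which encodes the NIK kinase of the non-canonical pathway, on the lower. The 4 kinases that fell are a share near that of all genes, and Map3k14 lay near the threshold (edgeR adjusted p = 0.0433).

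The atypical IkB genes Bcl3 (2.61), Nfkbil1 (1.48) and Nfkbid (0.33) all rose, as did 6 of 8 genes of IkB and p100 breakdown, such as Ube2m (1.16), and 5 of 7 coactivators and corepressors, such as Kat2b (1.42). Of 32 known NF-kB target genes tested, which include Traf1 and Birc3 of the ligase list, 30 rose, with Il1b at 2.43 CPM with vehicle and 3935 CPM with LPS. The smaller changes depend on the scaling. With total counts the split was 6 higher and 6 lower for the kinases, 2 and 3 for the coactivators and corepressors, and 3 and 2 for the breakdown genes, and Nfkbid (−0.08) changed sign. The target genes were 29 higher and 2 lower under that scaling. In KO cells, where 22.4% of all genes were called higher and 24.7% lower, the counts were 10 of 13 ligases and adaptors, 8 of 14 brakes (with 1 lower), 6 of 14 kinases (with 2 lower), 2 of 3 atypical IkB genes, 5 of 8 breakdown genes, 3 of 7 coactivators and corepressors and 30 of 32 targets.

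The second comparison was LPS with CCM against LPS alone, which asks whether the compound alters the stimulated state. In WT cells 6 of the 10 genes fell, by 17.2 to 24.7%, namely Nfkb2, Rel, Nfkbiz, Tnfaip3, Nfkb1 and Nfkbib. Of all 13579 genes tested 7.78% were called lower. The other 4 genes, Rela, Relb, Nfkbia and Nfkbie, did not pass the test. All 10 were lower with CCM in each of the 3 pairs of same-numbered libraries, and for 9 of them, all but Relb, the LPS+CCM and LPS libraries did not overlap.

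Nfkb2 had the smallest p. It was at 636, 607 and 597 CPM with LPS+CCM, below each of its 3 LPS libraries at 835, 827 and 781 CPM. The log2 fold change was −0.41 (SE 0.05, edgeR adjusted p = 0.000296). Rel was at 114, 97.7 and 102 CPM against 149, 132 and 131 CPM with LPS alone, a log2 fold change of −0.40 (SE 0.07, edgeR adjusted p = 0.00516). Its highest LPS+CCM library lay under its lowest LPS library.

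Nfkb1 was at 615, 589 and 542 CPM against 711, 722 and 697 CPM (log2 fold change −0.29, SE 0.05, edgeR adjusted p = 0.00552). The groups were again apart. Of the 2 remaining subunits, Rela was at 253, 229.6 and 256 CPM against 267, 262 and 278 CPM (log2 fold change −0.13, edgeR adjusted p = 0.148). Relb was at 153, 147 and 152 CPM against 158, 152 and 169 CPM (log2 fold change −0.09, edgeR adjusted p = 0.353). The 95% intervals of these 2 changes were −0.24 to −0.01 and −0.20 to 0.03.

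Tnfaip3 was at 752, 729 and 692 CPM with LPS+CCM and at 867, 889 and 957 CPM with LPS alone, a log2 fold change of −0.32 (SE 0.05, edgeR adjusted p = 0.00274). Nfkbiz was at 235, 213 and 203 CPM against 276, 277 and 285 CPM (log2 fold change −0.36, SE 0.06, edgeR adjusted p = 0.00202). In both genes every LPS+CCM library lay below every LPS library. Nfkbib was at 144, 129 and 133 CPM against 166, 155 and 169 CPM (log2 fold change −0.27, SE 0.06, edgeR adjusted p = 0.0129). This call rested on 1 library, since without WT LPS+CCM replicate 2 its adjusted p was 0.0687.

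Nfkbia was at 598, 659 and 609 CPM with LPS+CCM against 659.9, 724 and 771 CPM with LPS alone, a log2 fold change of −0.21 (edgeR adjusted p = 0.0548). The groups just failed to touch. Without WT LPS replicate 1, its lowest LPS library, the adjusted p was 0.0146. Nfkbie was at 199, 183 and 188 CPM against 203, 201 and 206 CPM (log2 fold change −0.10, edgeR adjusted p = 0.221). Same-numbered libraries deviated together here, and the fit with the replicate block called 8 members, with Nfkbia (−0.20, edgeR adjusted p = 0.000656) and Rela (−0.13, edgeR adjusted p = 0.0137) added to the 6 (1417 genes rose and 1803 fell in all). When all 36 libraries shared 1 estimate of the spread, none of the 10 genes was called and 17 of 15720 genes were.

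Expressed as the part of the LPS rise that was left with CCM, the 10 genes ranged from 66.4 ± 8.42% (SD, n = 3) for Rel to 93.2 ± 2.47% for Relb in WT cells. Nfkb2 kept 73.7 ± 2.65%, Nfkbiz 76.2 ± 6.10%, Nfkb1 78.5 ± 6.27%, Tnfaip3 78.6 ± 3.62% and Nfkbib 79.3 ± 5.98%. Nfkbia kept 85.3 ± 4.93%, Rela 85.8 ± 8.74% and Nfkbie 92.9 ± 4.36%. These SD take the vehicle and LPS means as fixed and so leave out their spread. On the same scale the SD of the WT LPS libraries ran from 1.23% for Nfkbie to 10.1% for Rel, with 6.48% for Relb. The LPS+CCM libraries of neighbours in this order overlapped, while those of Rel and Nfkb2 at the low end did not overlap with those of Nfkbie and Relb at the high end. The ratio of Nfkbia to Rela in FPKM was 4.29 ± 0.482 with LPS+CCM, within the spread of its value with LPS alone, and the share of Nfkb2 among the subunits was 49.3 ± 0.709%, with no library above 50.03%, against 51.8% or more in each LPS library.

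**Figure D4:**
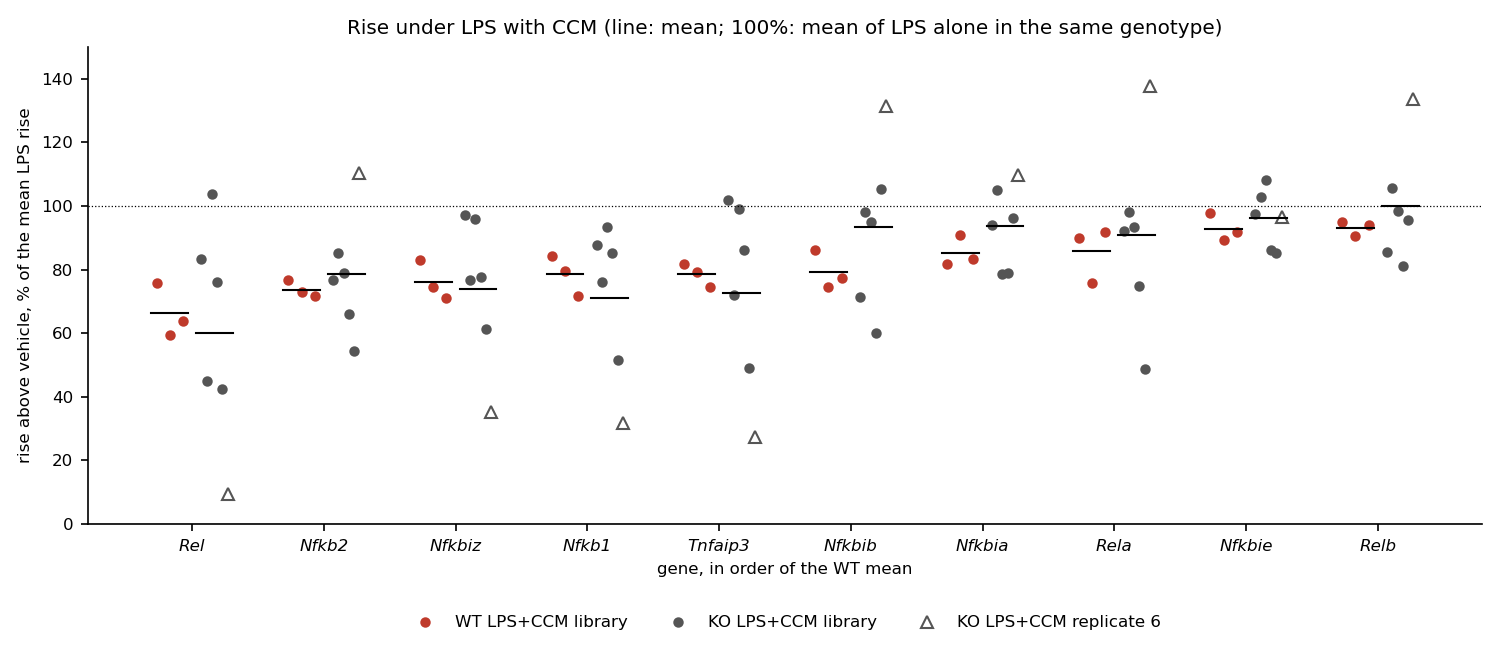
Part of the LPS rise left with CCM, in percent of the mean rise with LPS alone, for each gene in WT (n = 3) and KO cells (n = 6); points are LPS+CCM libraries, triangles KO replicate 6 and short lines means. In WT cells the means run from 66.4% (Rel) to 93.2% (Relb), and the KO libraries spread far more widely.

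Across the pathway, most calls under CCM in LPS-treated WT cells were lower, against 4.15% of all genes tested called higher and 7.78% lower. Of 32 NF-kB target genes tested 26 fell and none rose, with a median log2 change of −0.46 against 0.01 over all genes. The largest decreases by the rule for naming genes were those of Ptgs2, the inducible cyclooxygenase (log2 fold change −1.32, from 1665 to 668 CPM), Il12b, a subunit of interleukin-12 (−1.22, from 568 to 244 CPM), and the surface protein Cd83 (−0.98, from 28.1 to 14.2 CPM). Of 13 ligases and adaptors 6 fell, led by Rnf31 (−0.51), the catalytic part of the linear ubiquitin assembly complex, the Toll-like receptor adaptor Myd88 (−0.35) and Traf1 (−0.33).

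Of 8 breakdown genes 3 fell, namely Btrc (−0.31), Ube2m (−0.24) and Fbxw11 (−0.21), of which Btrc and Fbxw11 encode the receptors of the ligase that recognises phosphorylated IkB. Among the kinases 1 of 14 rose, Map3k14 (0.37, from 16.9 to 21.8 CPM), and 1 fell, Tbk1 (−0.25). Of 14 brakes 1 fell, the deubiquitinase Cyld (−0.36), of 3 atypical IkB genes 1 fell, Nfkbil1 (−0.27), and of 7 coactivators and corepressors 2 fell, Kat2b (−0.26) and Hdac1 (−0.20). The edgeR adjusted p was 0.0460 for Nfkbil1, 0.0376 for Hdac1 and 0.0296 for Btrc, near the threshold of 0.05. The counts of the kinases and brakes are near the shares over all genes, and those of the lists of 3, 7 and 8 genes are too small to be read against them. With total-count scaling, which moved the split of all calls from 564 higher and 1057 lower to 1539 higher and 733 lower, 6 members and 21 targets were lower and none was higher. That scaling moved the median log2 change over all genes from 0.01 to 0.09, which bears on the smaller falls.

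In KO cells CCM gave no call among the 10 genes under LPS, and 0.112% of the 13386 genes tested were called in either direction. The estimates were on the same side as in WT but with larger errors. Nfkb1 was at 335 CPM (lowest), 662 (median) and 723 (highest) with LPS and 264, 518 and 584 CPM with LPS+CCM. Nfkb2 was at 724, 786 and 1065 CPM with LPS and 476, 658 and 912 CPM with LPS+CCM. Tnfaip3 was at 336, 852 and 902 CPM with LPS and 256, 631 and 794 CPM with LPS+CCM. For all 10 genes the groups overlapped, and the LPS+CCM library of KO replicate 5 was also low, at 367 CPM for Nfkb1, 476 CPM for Nfkb2 and 413 CPM for Tnfaip3. Between same-numbered libraries, Nfkb1, Nfkb2, Rel, Nfkbiz and Tnfaip3 were lower with CCM in 6 of 6 pairs. Rela, Relb, Nfkbia, Nfkbib and Nfkbie were lower in 3 to 5 of the 6 pairs. Whether these numbers pair libraries is not known.

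The log2 fold changes in KO cells, with their 95% intervals, were −0.42 (−0.88 to 0.05) for Nfkb1, −0.34 (−0.69 to 0.01) for Nfkb2, −0.49 (−1.06 to 0.09) for Rel, −0.42 (−0.94 to 0.10) for Nfkbiz and −0.44 (−1.05 to 0.18) for Tnfaip3. For Rela, Nfkbia, Nfkbib and Nfkbie they were −0.10, −0.10, −0.10 and −0.07, and for Relb −0.02. Every edgeR adjusted p lay between 0.652 and 0.973. These intervals hold both 0 and the WT estimates. With voom, Nfkb1 and Nfkb2 were called lower. Without KO replicate 6 there was again no call among the members, with Relb at 0.02, while 42 genes rose and 128 fell in all. None of the genes of the other lists was called in KO cells, although 13 of 32 targets had an unadjusted p under 0.05 and their median log2 change was −0.32.

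Without LPS, CCM left the family within the spread of the libraries. None of the 10 genes was called in WT cells, where 0.057% of 14024 genes were called, or in KO cells, where edgeR called 0% of 13799 genes, 333 had an unadjusted p under 0.05 and DESeq2 called 24. In WT cells Nfkbia was at 64.7, 62.9 and 61.1 CPM with CCM, Rel at 45.2, 37.7 and 42.4 CPM and Tnfaip3 at 64.3, 69.3 and 74.6 CPM. These libraries overlapped with their vehicle libraries, as they did for all 10 genes in both genotypes. The log2 fold changes ran from −0.09 (Rela) to 0.08 (Rel) in WT, with 95% intervals of −0.22 to 0.05 and −0.10 to 0.27, and from −0.12 (Nfkbiz) to 0.13 (Nfkbib) in KO cells, with intervals of −0.87 to 0.62 and −0.36 to 0.63. In KO cells same-numbered libraries deviated together, and differently numbered ones did so less. There a replicate block called 195 genes higher and 234 lower, and leaving out KO replicate 6 gave 73 and 68, with no member among them in either.

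Whether the CCM change in WT cells differed with and without LPS was tested as an interaction over the 12 WT libraries. It was called for Nfkb2 (−0.38 on the log2 scale, 95% interval −0.54 to −0.22, edgeR adjusted p = 0.0192) and Rel (−0.50, −0.74 to −0.25, edgeR adjusted p = 0.0429), both more negative with LPS. Of all 14747 genes tested 1.62% were called lower. Tnfaip3 was at −0.40 (edgeR adjusted p = 0.0757), Nfkbib at −0.34, Nfkbiz at −0.29, Nfkb1 at −0.26 and Nfkbia at −0.22, and Nfkbie, Relb and Rela lay between −0.09 and −0.06. Tnfaip3 did pass with DESeq2 (DESeq2 adjusted p = 0.00391) and with voom (voom adjusted p = 0.0260). In the edgeR fit the difference between the 2 CCM changes was therefore called for 2 of the 6 genes that fell under LPS. Which of the genes passed depended on the processing.

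The edgeR calls of Nfkb2 and Rel both lay near the threshold. With total counts as scaling the adjusted p was 0.0729 for Nfkb2 and 0.103 for Rel, and neither was called, nor was either with all 36 libraries in 1 fit. Total counts moved the split of all calls from 69 higher and 239 lower to 230 higher and 117 lower. Neither was called without WT LPS replicate 2 (0.0545 for Nfkb2 and 0.0704 for Rel), without WT LPS+CCM replicate 2 (0.0531 and 0.112) or without WT LPS+CCM replicate 3 (0.0542 and 0.111). Nfkb2 alone was lost without WT CCM replicate 2 (0.0539). Rel alone was lost without WT CCM replicate 1 (0.0970) or 3 (0.0962), WT LPS replicate 1 (0.0997) or 3 (0.0575), and WT vehicle replicate 1 (0.0805), 2 (0.0623) or 3 (0.0523), and with voom (0.0512). Other pathway genes called in this interaction were Rnf31 (−0.61), Cyld (−0.38) and 5 of the target genes, among them Cd83 (−0.87), Ccl3 (−0.78) and Bcl2a1b (−0.76).

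The last comparisons set KO against WT. None of the 10 genes was called with vehicle or under LPS, and none differed between the genotypes in its response to LPS or to CCM under LPS. In each of these 4 tests edgeR called 0% of the genes tested, and the genes with an unadjusted p under 0.05 numbered from 72 for the genotype by CCM interaction to 118 for KO against WT with vehicle, with no member among them in any. All 4 counts lie far below the share of 0.05 that chance alone gives, so these tests were conservative. An absence of calls here does not show equal levels. Without KO replicate 6 the counts were 409 with vehicle, 327 under LPS, 308 for genotype by LPS and 187 for genotype by CCM. DESeq2 called 1 gene with vehicle and 1 under LPS, neither of them a member. With vehicle the members' log2 differences, KO minus WT, ran from −0.16 (Nfkb1, 95% interval −0.65 to 0.33) to 0.17 (Nfkbib, −0.31 to 0.66). Under LPS they ran from −0.24 (Rel, −0.83 to 0.35) to 0.17 (Relb, −0.16 to 0.51).

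Without KO replicate 6 these ranges narrowed to −0.07 to 0.12 with vehicle and −0.09 to 0.06 under LPS. The interaction of genotype with LPS ran from −0.11 (Rel) to 0.15 (Relb), and that of genotype with CCM under LPS from −0.12 (Nfkb1, 95% interval −0.79 to 0.56) to 0.19 (Nfkbib, −0.41 to 0.79). With KO replicate 6 left out, these interactions ran from −0.16 to 0.09 and from −0.11 to 0.26. That the CCM decreases passed the test in WT and not in KO cells is thus no difference shown between the genotypes, since the test of that difference called none of them and its intervals are wide.

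KO replicate 6 split the 10 genes by length. In all 4 treatments its levels of Nfkb1, Rel, Nfkbiz and Tnfaip3, whose deposited gene lengths are 12061, 7466, 5018 and 7226 bases, lay below those of all other 5 KO libraries, at 23.5 to 52.0% of their mean. Its levels of Nfkb2, Rela, Relb and Nfkbib, with lengths of 3289, 2716, 3885 and 2169 bases, lay above all others in all 4 treatments, at 125 to 194% of their mean. Nfkbia and Nfkbie (1610 and 3045 bases) were below, within or above the others depending on the treatment.

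The same order was present over all genes. In the vehicle libraries the median log2 difference of KO replicate 6 from the mean of the others was 0.59 for genes under 1000 bases, 0.65 from 1000 to 2000, 0.15 from 2000 to 4000, −0.24 from 4000 to 6000, −0.52 from 6000 to 8000 and −0.87 from 8000 bases on. The summed level of 8 neutrophil markers was 1079.8 to 1164 CPM in the 4 libraries of this replicate and 383 to 979 CPM in the other 32, that of 5 B cell markers 5.10 to 10.4 CPM against 1.32 to 5.14 CPM and that of 6 erythroid markers 5.02 to 11.6 against 1.20 to 7.37 CPM. None of these markers was at 0 in all libraries. The T cell (9.16 to 20.6 against 6.04 to 33.5 CPM) and dendritic cell sums (2.18 to 13.7 against 1.42 to 14.2 CPM) of this replicate lay within those of the others. So did its fibroblast sums (324 to 633 against 295 to 1659 CPM). The part of other cells or of RNA quality in these levels was not tested.

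**Figure D5:**
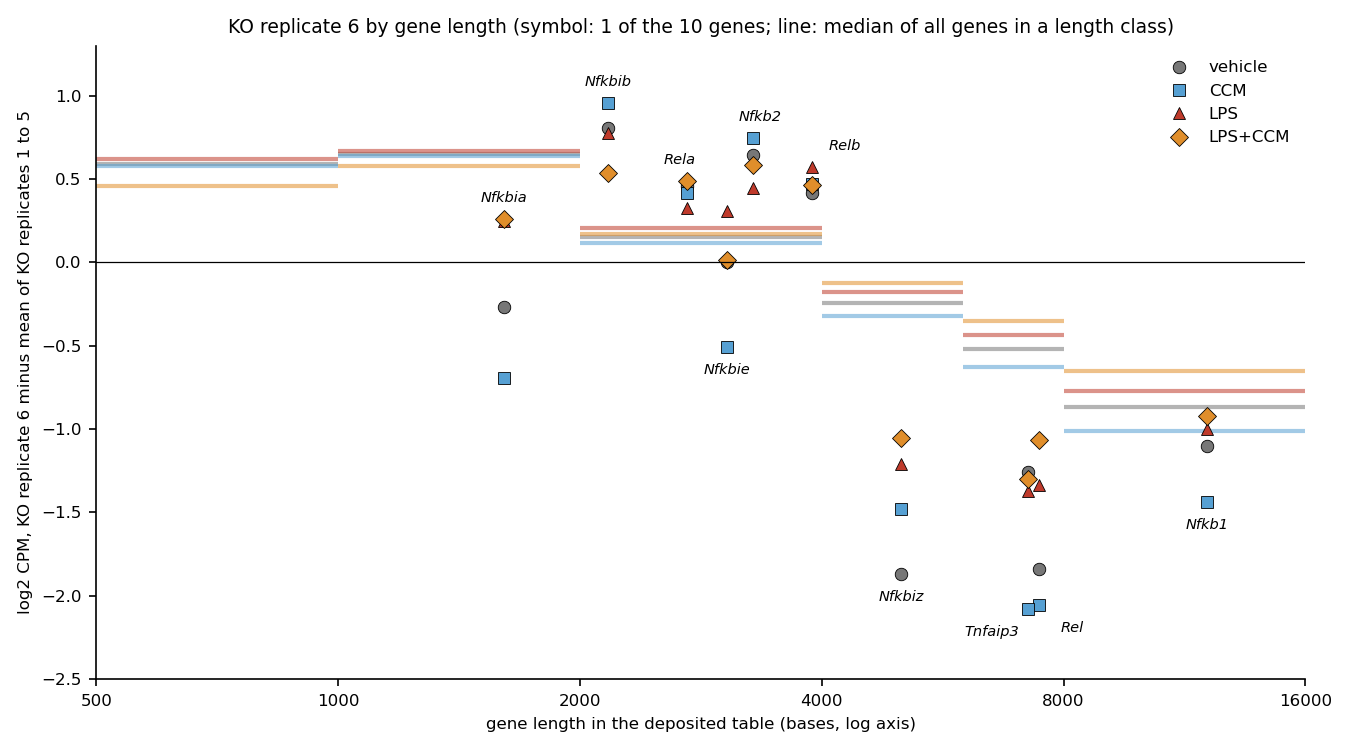
Difference of KO replicate 6 from the mean of the other 5 KO libraries (log2 CPM) against deposited gene length in bases (log axis) for each of the 4 treatments; symbols are the 10 genes, and lines are the medians over all genes in each length class. The 4 members over 4000 bases lie at −0.92 or lower in every treatment, and the medians with vehicle run from 0.65 to −0.87.

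Over the 8 groups, the 4 groups with LPS had the 4 highest mean levels for every gene. The ranges of the lowest LPS group and of the highest group without LPS did not overlap for 9 genes, and did for Rel. Within the LPS groups and within the others, neighbours in the order overlapped in their ranges, except WT LPS and WT LPS+CCM for Nfkbib.

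The genes whose log2 CPM followed each member most closely over the 36 libraries are given as a description, since all libraries share the contrast of LPS against no LPS and any strongly induced gene follows it. Nfkb1 was closest to Dtx3l and Tnfaip3 (Pearson r = 0.997 for both), Nfkb2 to Tap1 (0.999) and Parp10 (0.998), Rel to Fndc3a (0.996) and Zfp800 (0.994), Rela to Ccdc88b (0.994) and Rasa4 (0.993), and Relb to Mapkapk2 (0.997). Of the inhibitors, Nfkbia was closest to Tlr2 (0.998) and Tnf (0.995), Nfkbib to H2-K1 (0.997) and Slfn2 (0.996), Nfkbie to Vasp and Mcoln2 (0.997 for both), Nfkbiz to Spata13 and Jak2 (0.996 for both), and Tnfaip3 to Malt1 and Nfkb1 (0.997 for both).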

How the data were processed

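RNA with poly(A) tails from 36 BMDM libraries was sequenced in pairs. Per the labels' processing notes the authors used fastp, HISAT2 2.0.5 and featureCounts 1.5.0-p3 with build mm10, and they deposited raw read counts per gene, as whole numbers, with a gene length. Normalized values were not used here.

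For each comparison its groups alone were fitted with edgeR 4.0.16 (R 4.3.3): filterByExpr, TMM, estimateDisp, glmQLFit and glmQLFTest, two-sided, without a block, Benjamini-Hochberg over all genes tested. The 95% intervals used the SE (log2 change over the root of F) and edgeR's degrees of freedom. Interactions were terms of fits over the groups involved. CPM used TMM factors over 36 libraries and FPKM divided them by the deposited length. Log2 CPM had a prior count of 2. Positions were those of the deposited table, 54409 of whose 54532 genes are in GENCODE release M21 (GRCm38), 53499 with identical coordinates. Promoters were from RefSeq. Groups came from the labels. All libraries of a group differed by more than counting noise (lowest chi-square per degree of freedom, 4.08), so replicate spread limits the precision.

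The members, lists and tests were chosen with earlier results of these data known. Every member is named. Of each pathway list at most 3 called genes per direction are named, those with the largest changes among genes whose average log2 CPM reached 1, and the 2 genes of highest correlation with each member. Some genes that this rule names are not reported here. Lists of macrophage, neutrophil, B cell, T cell, dendritic cell, erythroid and fibroblast markers were summed.

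Alternatives were DESeq2 1.42.0, voom with quality weights (limma 3.58.1), RLE, total counts, no filter, all 36 libraries in 1 fit, the replicate block, and fits without each library or KO replicate. The block without KO replicate 6 was added after seeing the data. Whether numbers pair libraries was checked by the correlation of same-numbered deviations from the group means. It was over 0.1 for each pair for CCM under LPS in WT (0.151 to 0.360), LPS in KO (0.300 to 0.830) and CCM in unstimulated KO (0.337 to 0.839). The medians for differently numbered libraries were −0.132, 0.175 and 0.223, so in KO cells the bar of 0.1 lies below this background. The labels do not say what a number marks. The scripts were tested on simulated data.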

Additional observations from a re-analysis of the deposited data

Results flagged for a closer look

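Of 40 sets of libraries (10 genes in the 4 KO groups of 6), 18 held a library far from the others by Dixon's test, where chance gives about 1 in 20 sets. All 18 were libraries of KO replicate 6, for 8 genes. The sets of the 10 genes share the same libraries and are not independent, so the 18 are not separate events. Low values were those of Nfkb1 (51.4 CPM with vehicle, 39.0 with CCM, 335 with LPS), Rel (11.1 with vehicle, 9.44 with CCM), Nfkbiz (4.90 with vehicle, 120.1 with LPS) and Tnfaip3 (27.6 with vehicle, 16.3 with CCM, 336 with LPS). High values were those of Nfkb2 (75.4 with vehicle, 77.4 with CCM), Rela (138 CPM with vehicle and 138 with CCM), Relb (248 with LPS) and Nfkbib (47.1 with vehicle, 55.4 with CCM, 276 with LPS). No set with LPS+CCM was among them. The low genes are 5018 to 12061 bases long and the high genes 2169 to 3885 bases. The part of RNA quality or of other cells was not tested.

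In WT cells the CCM change differed with and without LPS for Nfkb2 (interaction −0.38 on the log2 scale) and Rel (−0.50), by edgeR's test of the interaction itself. Both calls depend on the processing. Of 19 alternatives Nfkb2 passed in 13 and Rel in 6, and neither passed with total counts, with all 36 libraries in 1 fit (adjusted p = 0.99993 for both), or without WT LPS replicate 2, WT LPS+CCM replicate 2 or WT LPS+CCM replicate 3.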

How the results depend on the processing

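All 10 genes were called higher with LPS in both genotypes under every alternative, and no member was called between genotypes, in their interactions or for CCM without LPS under any. For CCM under LPS in WT, 6 members were called, 5 to 7 when a library was left out, 7 with DESeq2, voom, RLE or no filter, and 0 with all 36 libraries in 1 fit. In KO cells 0 members became 2 (Nfkb1 and Nfkb2) with voom. For the LPS by CCM interaction in WT, 2 members became 4 with DESeq2, 3 with no filter, 0 with total counts and 0 with all 36 libraries in 1 fit, and 0 to 2 when a library was left out.

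With the replicate block, CCM under LPS called 8 members in WT and 5 in KO cells (0 with KO replicate 6 left out as well), where numbers did not pair all libraries (correlations of −0.102 to 0.813), and the interaction called 3. Otherwise it changed no member's call. For the other called pathway genes that were followed, the alternative fits kept the call 810 times, lost it 112 times and changed the sign 1 time.

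Over all genes, calls for CCM under LPS in KO numbered 15, against 180 with DESeq2, 768 with voom, 285 with all 36 libraries, 777 with the block and 170 without KO replicate 6, and 0 to 7 without another replicate. For CCM under LPS in WT they numbered 1621, against 17 with all 36 libraries, 3220 with the block, 958 without LPS replicate 2 and 893 without LPS+CCM replicate 2. Without LPS, 8 in WT became 247 (DESeq2), 377 (no filter), 255 (block), 0 (all 36 libraries) and 0 to 16 when a library was left out, and 0 in KO became 24 (DESeq2), 299 (voom), 14 (all 36 libraries), 429 (block), 729 (block without KO replicate 6) and 141 without KO replicate 6. The 308 of the interaction became 696 (DESeq2), 721 (no filter), 548 (block), 0 (all 36 libraries) and 149 to 204 without any of 8 libraries. LPS in KO called 6433, against 9765 with voom, 9774 with the block and 10023 with the block and no KO replicate 6, and LPS in WT 9139, against 5644 with all 36 libraries.

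Among the genes reported here, sign changes were confined to changes near 0 that passed no test, apart from Nfkbid (−0.0831) for LPS in WT with total counts. CCM under LPS in KO gave Relb 0.0151 with total counts, 0.000297 with all 36 libraries and 0.0195 with the block and no KO replicate 6. Without LPS in WT, Relb was at 0.0298 with voom and 0.00125 with all 36 libraries, and Nfkbia at −0.00966 with voom, −0.00174 with total counts and −0.000586 with no filter. Without LPS in KO, voom gave Relb 0.0483, Nfkbia 0.0743 and Nfkbie 0.0258, the block gave Tnfaip3 −0.0277, and the block without KO replicate 6 gave Nfkbia 0.0109. In the interaction total counts gave Rela 0.0385, Relb 0.0127 and Nfkbie 0.00389. Leaving out a library or replicate gave −0.0675 to 0.0231 for Relb under LPS in KO. Without LPS in WT it gave −0.101 to 0.000146 for Nfkb1, −0.0766 to 0.0619 for Relb, −0.0140 to 0.0162 for Nfkbia, −0.0419 to 0.143 for Nfkbib, −0.0376 to 0.0127 for Nfkbie and −0.218 to 0.0873 for Nfkbiz. Without LPS in KO it gave −0.0682 to 0.00929 for Nfkbia, −0.104 to 0.0232 for Rel, −0.0336 to 0.0509 for Relb and −0.0193 to 0.0566 for Tnfaip3. The cause of the changes in calls, counts and signs was not tested.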
